A study of Mus musculus with 12 samples.

Results

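The RUNX transcription factors and their cofactors were examined through the accessible chromatin at 7 genes: Runx1, Runx2, Runx3, Cbfb, Cbfa2t3, Cbfa2t2 and Runx1t1. Accessible regions were taken from 12 ATAC-seq libraries of mouse hematopoietic stem cells (HSCs), an assay in which a transposase cuts open DNA and so marks it for sequencing. The deposited lists hold peak summits, each with a score that is the −log10 of its q-value. Windows of 250 bp on each side of every summit with a score of at least 3 were merged over the 12 lists, and those inside a member gene or within 10 kb of it were kept. This gave 62 regions among 71006 over the genome (mm10).

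All animals were C57BL/6 mice, and HSCs had been sorted from bone marrow as Lin-/cKit+/Sca1+/Flk2-/CD48-/CD150+ cells. There were 3 libraries in each of 4 groups. Young WT mice were wild type and 3 months old, young Mlkl-/- mice lacked Mlkl and were also 3 months old, and the aged WT and aged Mlkl-/- mice were 18 months old. Mlkl encodes the pseudokinase that carries out necroptosis. Cells of several animals had been pooled for each library, so n counts pools, and p-values measure the spread between these pools. By the paper's methods, each young library came from more mice than each aged library, so pool size differed with age.

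RUNX proteins bind DNA through their Runt domain, and CBFB, which does not itself touch DNA, strengthens this binding. RUNX1 is required for blood stem cells to form in the embryo, RUNX3 acts in T cell and other blood lineages, and RUNX2 is best known as the regulator of bone formation. Runx1 is read from a distal and a proximal promoter, and the distal one is known as the main start in adult blood stem cells. CBFA2T3, CBFA2T2 and RUNX1T1 are corepressors of the ETO family, and RUNX1T1 is the partner joined to RUNX1 by a chromosome translocation in acute myeloid leukemia.

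The sequences below are those on which the Runx1 results turn, read on the strand of the gene from the RefSeq copy of GRCm38.p6 (mm10). The first 2 are the 200 bases before each Runx1 start, and the others are the 201 bases centred on the highest summit of an intronic region. Capitals mark the letters of 4 motifs, searched on both strands, and a base could count for more than 1 of them. The RUNX motif was taken as TGTGGT, with the variant TGCGGT also accepted for it. The GATA motif was taken as AGATAA, and the variant that begins with T in place of A was accepted too. The ETS motif was searched as AGGAAG throughout these windows. The E-box was searched as CAGNTG, in which N stands for any base.
Runx1 distal promoter (chr16:92826150-92826349, minus strand): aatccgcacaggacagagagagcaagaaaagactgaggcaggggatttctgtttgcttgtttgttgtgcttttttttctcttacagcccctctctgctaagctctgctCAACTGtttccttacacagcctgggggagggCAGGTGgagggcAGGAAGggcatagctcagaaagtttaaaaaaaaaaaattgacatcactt
Runx1 proximal promoter (chr16:92697329-92697528, minus strand): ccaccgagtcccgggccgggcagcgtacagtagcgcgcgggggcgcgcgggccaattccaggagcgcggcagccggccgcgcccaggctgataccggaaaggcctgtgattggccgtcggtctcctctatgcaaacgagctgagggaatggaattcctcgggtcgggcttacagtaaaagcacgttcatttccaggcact
Runx1 +3.8 kb (chr16:92822247-92822447, minus strand): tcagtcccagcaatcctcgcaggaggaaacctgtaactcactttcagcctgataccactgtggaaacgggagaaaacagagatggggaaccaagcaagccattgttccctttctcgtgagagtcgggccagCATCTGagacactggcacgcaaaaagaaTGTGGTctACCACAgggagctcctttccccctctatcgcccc
Runx1 +24.4 kb (chr16:92801682-92801882, minus strand): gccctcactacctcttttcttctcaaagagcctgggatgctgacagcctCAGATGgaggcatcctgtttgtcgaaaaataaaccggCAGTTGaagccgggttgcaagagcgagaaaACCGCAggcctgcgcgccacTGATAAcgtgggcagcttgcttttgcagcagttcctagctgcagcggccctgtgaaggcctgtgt
Runx1 +39.0 kb (chr16:92787092-92787292, minus strand): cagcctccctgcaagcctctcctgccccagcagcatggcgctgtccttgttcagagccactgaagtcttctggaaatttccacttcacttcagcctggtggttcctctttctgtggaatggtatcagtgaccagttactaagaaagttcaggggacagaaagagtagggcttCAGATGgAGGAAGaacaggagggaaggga
Runx1 +181.3 kb (chr16:92644761-92644961, minus strand): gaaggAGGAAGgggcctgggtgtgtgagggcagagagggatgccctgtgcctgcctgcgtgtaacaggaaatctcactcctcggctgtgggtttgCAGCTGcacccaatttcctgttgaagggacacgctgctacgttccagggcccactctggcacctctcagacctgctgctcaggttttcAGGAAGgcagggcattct
None of the printed motif letters occurred in the 200 bases before the proximal start, whose GC content was 65.0% against 46.0% before the distal start. The 200 bases before the distal start held 1 ETS match and 2 E-boxes. The region at +24.4 kb held RUNX, GATA and E-box letters together, and that at +3.8 kb held 2 RUNX matches on opposite strands. The window at +39.0 kb held 1 ETS match and 1 E-box. Near the summit at +181.3 kb there were 2 ETS matches and an E-box 5 bases before the summit, with no RUNX or GATA letters in this window. Such matches are letters in a window and do not show that a factor binds.

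The libraries as a whole differed in ways that touch these results. The lists held 35714 to 61495 summits at the score minimum of 3, and aged lists were on average longer. Sequencing depth was unknown, since the lists hold no read counts, so no counting error can be given. Each list was therefore cut to its 35714 summits of highest score before ranks were compared. Mlkl had a summit within 1 kb of its start in 3 of 3 lists of every group, which does not test the genotype label, because a disrupted gene may still have an open start. Of 12 HSC marker genes, Hlf, Kit, Tal1 and Meis1 had a summit at the start in all 12 lists, while Slamf1, which encodes the sorted marker CD150, had none in any. Among 5 neutrophil genes none had a start summit in any list, and among 6 T cell genes Lck alone had one, in 1 list. Some starts of other lineages were open in all 12 lists, namely Pf4, Gp9, Itga2b, Epor, Irf8, Ebf1 and Pecam1. Summits at starts of Y chromosome genes were found in 3 of 6 young lists (Young WT 1, Young Mlkl-/- 1 and 2) and in none of the aged lists. File names of 9 libraries carried an extra tag, unexplained in the labels, and the other 3 were Young Mlkl-/- 2, Aged WT 3 and Aged Mlkl-/- 1.

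Of the 62 member regions, 20 (32.3%) were called in all 12 lists, where called means that a list held at least 1 summit in the region. Over the whole catalogue this share was 28.6%. Regions called in 1 list were 10 of 62 (16.1%) against 17.0% of all regions. Runx2, the longest of the genes at 319 kb, held 20 regions, and Runx1 held 11. Cbfa2t3 had 9 regions, Runx1t1 had 8, Runx3 had 6, and Cbfb and Cbfa2t2 had 4 each. The highest summit of 41 regions lay in an intron of the member, and 12 regions covered an annotated start of their own gene, with another 2 within 1 kb of one.

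Each list called 36.3 ± 2.52 member regions for young WT, 37.0 ± 8.66 for young Mlkl-/-, 40.0 ± 5.0 for aged WT and 40.7 ± 4.93 for aged Mlkl-/- (SD, n = 3). Over all regions the means were 34829, 37816, 44240 and 45086 in the same order. The lowest member count, 27, was that of Young Mlkl-/- 3, which was also the shortest list. Aged lists called 1.10 times as many member regions as young lists, against 1.23 times over all regions. In lists of equal length the means were 30.3 in young and 28.7 in aged lists, a ratio of 0.945, against 1.02 over all regions. The genotypes were close, with 38.2 member regions per WT list and 38.8 per Mlkl-/- list, against 39534 and 41451 over all regions. In the deposited lists 12 regions were called in aged lists alone and 4 in young lists alone, and each of these was called in 1 to 3 lists. These shares, 19.4% and 6.45%, lay beside 21.1% and 8.85% over all regions.

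**Figure D1:**
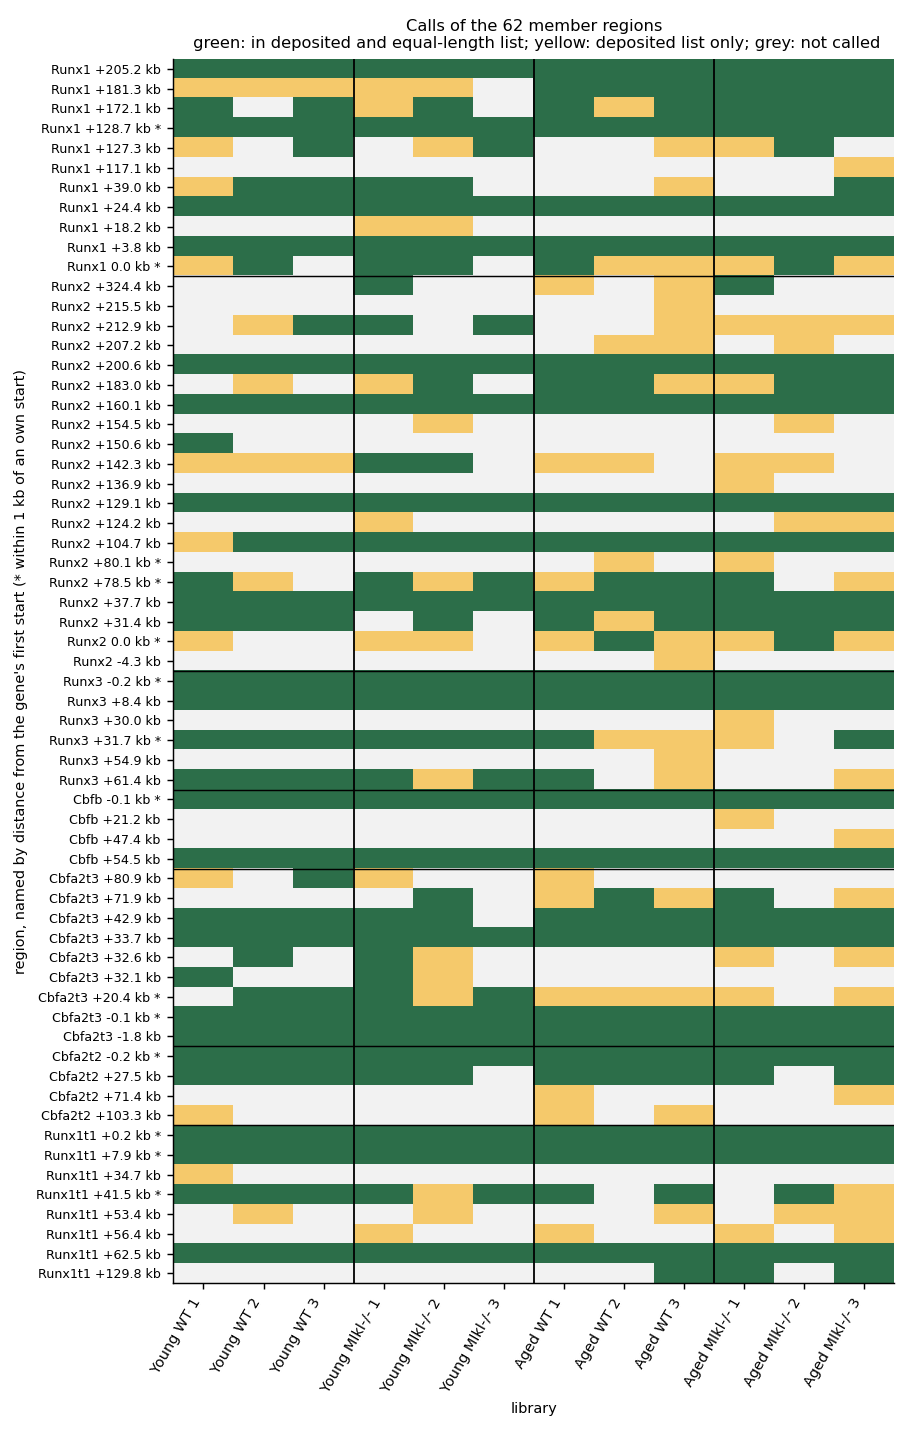
Calls of the 62 member regions (vertical axis, named by distance in kb from the first start of the gene, asterisk for a region within 1 kb of an own start) in the 12 libraries (horizontal axis). Green marks a call in the deposited and in the equal-length list, yellow a call in the deposited list alone and grey no call. A reader should see 20 rows coloured across all 12 libraries and a row at Runx1 +181.3 kb that is green in the 6 aged libraries and yellow or grey in the 6 young ones.

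Ranks were compared next. Within each equal-length list all 71006 regions were ranked by their highest score, and ranks were turned into normal scores, on which a region that was not called lay between −0.575 and −0.525. A higher normal score is a higher place in that list, not a larger amount of open chromatin. The 37882 regions called in at least 3 equal-length lists were tested with limma at a Benjamini-Hochberg adjusted p under 0.01, and 37 of them were member regions. Of these 37, 2 passed that filter through aged lists alone (Runx1 +181.3 kb and Runx1t1 +129.8 kb), beside 1762 of all 37882 tested regions. Another 2 member regions passed through young lists alone (Cbfa2t3 +20.4 kb and Runx2 +212.9 kb). A difference between ages was thus built into the selection of all of these member regions.

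Runx1, on the minus strand of chromosome 16 (92601466 to 92826149), had its strongest accessible region in the intron between its promoters. The region at +24.4 kb from the distal start (chr16:92801516-92802054) was called in all 12 lists. Its scores were 59.5, 70.4 and 50.1 for young WT, 62.7, 48.3 and 46.4 for young Mlkl-/-, 70.5, 68.2 and 44.7 for aged WT, and 58.1, 42.4 and 81.4 for aged Mlkl-/- libraries. The scores of the 4 groups overlapped throughout. Its rank from the top of the equal-length lists was between 58 and 1056, and on average it lay in the top 1.43% of the regions called. The summit was 23.9 kb downstream of the distal start codon, in the part of the first intron where an enhancer active in blood stem cells is known; whether it is that element was not tested. Its mean normal score was 2.69 ± 0.32 in young and 2.55 ± 0.32 in aged libraries (SD, n = 6), a difference of −0.14 ± 0.19 (SE, limma adjusted p = 0.733).

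The promoters of Runx1 lay 128.8 kb apart and were both much weaker than this intronic region. The proximal promoter (chr16:92696530-92697696) was called in all 12 lists, with scores of 10.1, 9.90 and 11.3 for young WT, 10.0, 8.63 and 6.16 for young Mlkl-/-, 11.5, 7.31 and 8.11 for aged WT, and 17.4, 7.72 and 12.4 for aged Mlkl-/- libraries. The distal promoter (chr16:92825798-92826409) was called in 10 lists, with scores of 4.56 and 10.4 for 2 young WT, 9.13 and 9.07 for 2 young Mlkl-/-, 9.07, 6.48 and 6.43 for 3 aged WT, and 7.06, 8.5 and 8.16 for 3 aged Mlkl-/- libraries. It had no call in Young WT 3 and Young Mlkl-/- 3, and in lists of equal length it was called in 5. Young and aged scores overlapped at both promoters. The change with age was −0.11 ± 0.18 at the proximal promoter (SE, limma adjusted p = 0.774). At the distal promoter it was −0.21 ± 0.30 (limma adjusted p = 0.745), with a 95% interval from −0.84 to 0.42, and its direction depended on the processing: it was 0.14 in lists of unequal length and 0.01 in the 9 tagged libraries.

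**Figure D2:**
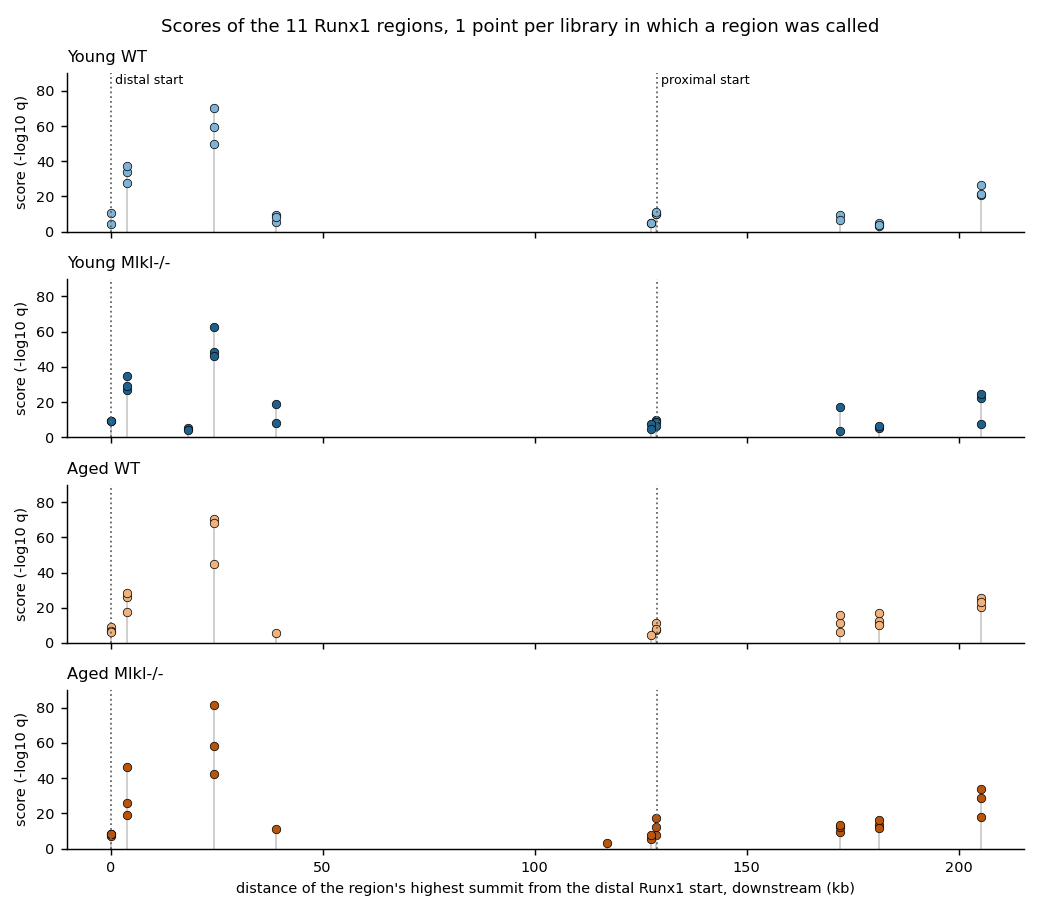
Scores (−log10 q, vertical axis) of the 11 Runx1 regions against the distance of their highest summit from the distal start (horizontal axis, kb), with 1 panel per group and 1 point per library that called the region. Dotted lines mark the distal and the proximal start. In every panel the points at +24.4 kb stand highest, between 42.4 and 81.4, and those at the promoters lie at 17.4 or below.

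Between the promoters, the region at +3.8 kb (chr16:92822017-92822655) was called in all 12 lists. Its scores were 33.8, 37.0 and 27.8 for young WT, 26.9, 29.1 and 34.8 for young Mlkl-/-, 26.1, 28.1 and 17.7 for aged WT, and 26.1, 18.8 and 46.6 for aged Mlkl-/- libraries. Aged values were lower in most libraries, but Aged Mlkl-/- 3 had the highest score of all 12. The mean normal score was 1.70 ± 0.29 in young and 1.28 ± 0.27 in aged libraries (SD, n = 6), and the difference of −0.41 ± 0.15 did not pass the threshold (SE, limma unadjusted p = 0.0129, adjusted p = 0.103). The region at +39.0 kb (chr16:92786748-92787457) had a call in 5 of 6 young lists and in 2 of 6 aged lists, with a change of −0.66 ± 0.30 that did not pass either (limma adjusted p = 0.198). A weak region at +127.3 kb, 1.48 kb upstream of the proximal start, was called in 7 lists and showed −0.13 ± 0.25 (limma adjusted p = 0.797); with list length as a covariate the value was 0.45. The regions at +18.2 kb and +117.1 kb were called in 2 lists and 1 list and were not tested.

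Downstream of the proximal start, 1 Runx1 region lay past the threshold with age, but it had entered the test through aged lists alone. At +181.3 kb (chr16:92644536-92645160), in an intron 52.5 kb past the proximal start, scores were 4.87, 3.24 and 3.76 in young WT and 5.44 and 6.53 in 2 young Mlkl-/- libraries, and Young Mlkl-/- 3 had no call. They were 12.5, 10.2 and 17.1 in aged WT and 13.6, 16.2 and 11.8 in aged Mlkl-/- libraries. All 6 aged scores were above all young scores, but 5 of 6 young lists did call the region, so it scored lower in young lists and was not without any summit. At equal length it had a call in 0 of 6 young lists and in 6 of 6 aged lists. The mean normal score was −0.54 ± 0.02 in young and 0.69 ± 0.22 in aged libraries (SD, n = 6), a difference of 1.23 ± 0.21 (SE, limma adjusted p = 0.00177). All 6 young values were those of a region without a call, so the small young SD is only the spread of that value between lists. This p was partly set by the cut to equal length and by the filter, and is given as a description. Of the 649 regions called higher with age, 273 had also entered through aged lists alone (42.1%). In lists of unequal length, where 5 young lists held the region, the difference was 0.70 and did not pass (limma adjusted p = 0.0242). At equal length it was 1.24 ± 0.30 in WT (limma adjusted p = 0.0424) and 1.23 ± 0.30 in Mlkl-/- (limma adjusted p = 0.048), neither past the threshold alone. The interaction of age and genotype was −0.01 ± 0.43 (limma unadjusted p = 0.99). Since both young groups stood at the value of a region without a call, these estimates cannot tell whether the change was alike in both genotypes.

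This was the single call among the 37 member regions, a share of 2.70% against 2.71% (1027 of 37882) over all tested regions, and 1.71% of all tested regions were called higher with age. A call rate at the background is no result about the RUNX genes as a set. The call was lost when lists were left at unequal length (limma adjusted p = 0.0242), with list length as a covariate (1.33, 0.0292), with Y gene summits as a covariate (1.22, 0.0172) and in the 9 tagged libraries (1.18, 0.0186). Y gene summits were found in 3 of the 6 young lists and in none of the aged lists, and the part of sex in the difference was not tested. The values of the 6 young and the 6 aged libraries did not overlap at 1 of 37 member regions, this one, and at 3.88% of all tested regions.

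**Figure D3:**
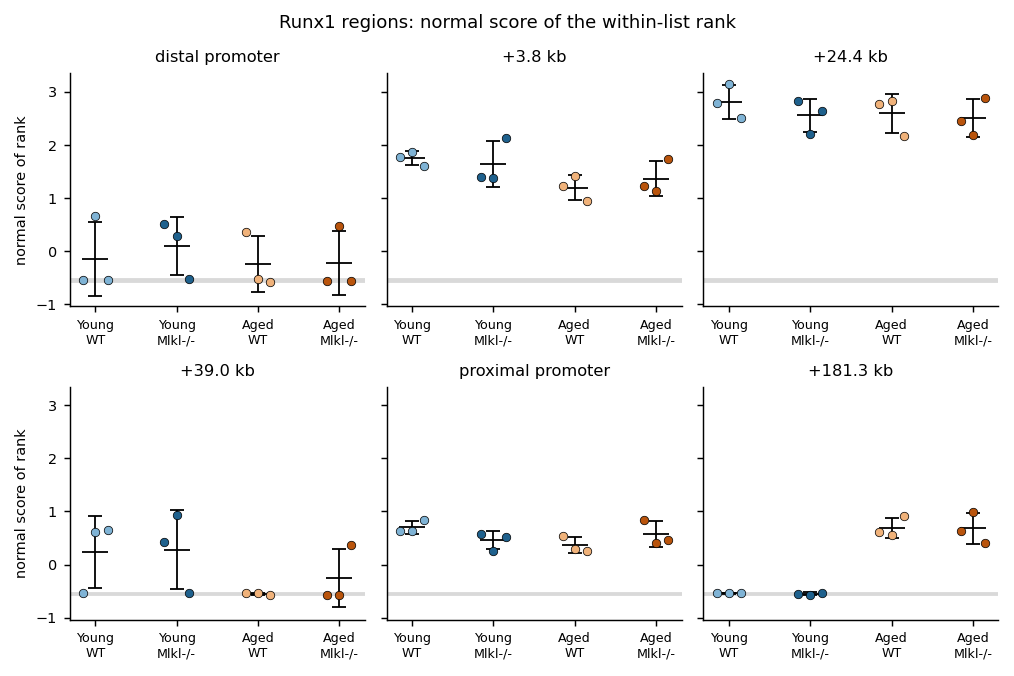
Normal score of the within-list rank (vertical axis, no unit) for 6 Runx1 regions in the 4 groups, with 1 point per library, a line at the mean and bars of 1 SD (n = 3). The grey band is the range taken by regions that were not called. The 6 young and the 6 aged points overlap in 5 panels, and at +181.3 kb the 6 young points lie in the band and the 6 aged points between 0.41 and 0.998.

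Farther into the gene, the region at +205.2 kb was called in all 12 lists, with scores of 7.40 to 34.1, and that at +172.1 kb in 10. The 3 genes whose mean normal score over their tested regions was most like that of Runx1 across the 12 libraries were Ky (Pearson r = 0.883), Mdc1 (0.871) and Gid4 (0.868), picked from 7511 genes as a description; the points share list length and scoring.

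The start of Runx3 ranked highest among the member starts. The region at its distal start (chr4:135119833-135120760, plus strand, summit 0.169 kb before the start) was called in all 12 lists. Its scores were 65.0, 51.9 and 48.8 for young WT, 58.9, 52.0 and 39.5 for young Mlkl-/-, 57.1, 59.9 and 47.2 for aged WT, and 38.1, 46.9 and 71.1 for aged Mlkl-/- libraries. Groups overlapped, and the change with age was −0.26 ± 0.17 (SE, limma adjusted p = 0.391). On average the region lay in the top 2.43% of those called. The window around its summit is shown because it holds 2 RUNX matches side by side.
Runx3 distal start (chr4:135120383-135120583, plus strand): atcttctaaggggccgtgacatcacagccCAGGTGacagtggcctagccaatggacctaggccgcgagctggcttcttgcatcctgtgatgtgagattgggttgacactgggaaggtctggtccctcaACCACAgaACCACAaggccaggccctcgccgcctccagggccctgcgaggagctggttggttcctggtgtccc

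The proximal start of Runx3, 31.7 kb downstream, was weaker. It had a call in 6 of 6 young lists and in 5 of 6 aged lists, with scores of 12.3, 11.9 and 6.17 for young WT, 8.63, 8.69 and 7.66 for young Mlkl-/-, 10.5, 6.00 and 6.74 for aged WT, and 5.29 and 9.49 for 2 aged Mlkl-/- libraries. At equal length 6 of 6 young and 2 of 6 aged lists called it. This was the largest negative difference with age among the tested member regions, with mean normal scores of 0.57 ± 0.20 in young and −0.25 ± 0.48 in aged libraries (SD, n = 6), but the difference of −0.82 ± 0.25 did not pass the threshold (SE, limma unadjusted p = 0.00447, adjusted p = 0.055). A region 61.4 kb past the distal start, beyond the end of the gene, showed −0.75 ± 0.28 (limma adjusted p = 0.107), and that at +8.4 kb, called in all 12 lists, −0.17 ± 0.16 (limma adjusted p = 0.585).

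Runx2, on the minus strand of chromosome 17, had many weak regions. Its distal start was called in 9 lists, 3 young and 6 aged, with scores of 4.02 to 11.2. At equal length only 2 lists called it, so it was not tested. The annotated gene Supt3 overlaps this region, and its summits cannot be assigned to either gene. The proximal start of Runx2 at +78.5 kb, where the antisense gene Runx2os1 also begins, was called in 10 lists with scores of 3.77 to 13.5. There the change with age was 0.05 ± 0.29 (SE, limma adjusted p = 0.946), and the sign turned in 7 of 23 alternatives. The highest-ranked region away from Runx2 starts, at +160.1 kb (chr17:44654475-44655018), was called in all 12 lists. Its scores were 21.2, 34.3 and 30.6 for young WT, 36.0, 25.5 and 15.5 for young Mlkl-/-, 22.3, 20.2 and 14.7 for aged WT, and 20.9, 12.3 and 39.4 for aged Mlkl-/- libraries. The ages overlapped, and the change was −0.45 ± 0.15 (limma adjusted p = 0.0866). The region at +183.0 kb was called in 3 young and 6 aged lists, and its change with age was 0.43 ± 0.27 (limma adjusted p = 0.356). That at +104.7 kb, at the start of Runx2os2, was called in all 12 lists and showed 0.14 ± 0.22 (limma adjusted p = 0.773).

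Cbfb, which encodes the partner shared by the RUNX proteins, was open at its start (chr8:105170285-105171860) in all 12 lists. Its scores were 34.6, 32.4 and 25.2 for young WT, 29.9, 22.6 and 19.9 for young Mlkl-/-, 30.2, 29.5 and 28.9 for aged WT, and 35.3, 26.4 and 35.9 for aged Mlkl-/- libraries. No group stood apart, and the change with age was −0.04 ± 0.11 (SE, limma adjusted p = 0.869), with a 95% interval from −0.27 to 0.19. A second region called in all 12 lists, at +54.5 kb and past the end of Cbfb, covered the start of the neighbouring gene D230025D16Rik and showed −0.12 ± 0.12 (limma adjusted p = 0.648).

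Of the corepressor genes, Cbfa2t3 carried the lowest p after that of Runx1 +181.3 kb. Its region at +33.7 kb (chr8:122665158-122665684), in an intron, was called in all 12 lists with scores of 42.9, 43.7 and 37.0 for young WT, 35.9, 29.1 and 28.4 for young Mlkl-/-, 28.2, 34.3 and 23.0 for aged WT, and 30.4, 24.9 and 41.5 for aged Mlkl-/- libraries. Young WT libraries ranked above all others, with a mean normal score of 2.08 ± 0.09 against 1.66 ± 0.25 for young Mlkl-/-, 1.39 ± 0.23 for aged WT and 1.46 ± 0.10 for aged Mlkl-/- (SD, n = 3). The change with age was −0.44 ± 0.12 over both genotypes (SE, limma adjusted p = 0.0263) and −0.69 ± 0.17 in WT (limma adjusted p = 0.0407), past 0.05 but not 0.01. It was −0.20 ± 0.17 in Mlkl-/- (limma adjusted p = 0.646), and the interaction of 0.49 ± 0.24 did not pass (limma unadjusted p = 0.0516, adjusted p = 0.964). Its summit window, shown as that of the member with the lowest p apart from Runx1, holds 2 E-boxes, the letters bound by partners such as TAL1.
Cbfa2t3 +33.7 kb (chr8:122665313-122665513, minus strand): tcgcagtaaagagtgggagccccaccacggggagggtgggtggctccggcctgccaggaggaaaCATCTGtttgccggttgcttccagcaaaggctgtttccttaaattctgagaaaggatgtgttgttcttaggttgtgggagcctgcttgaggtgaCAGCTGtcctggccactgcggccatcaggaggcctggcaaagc

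The first start of Cbfa2t3 was called in all 12 lists, with scores of 12.3 to 34.4 and a change of −0.27 ± 0.15 (SE, limma adjusted p = 0.293). A region beside an internal start, at +20.4 kb, had a call in 5 of 6 young lists and in 5 of 6 aged lists with scores of 4.46 to 10.4, at equal length in 4 young and 0 aged lists, and showed −0.70 ± 0.26 (limma adjusted p = 0.107). This region had entered the test through young lists alone, so its SE and p were partly set by the filter. The annotated gene Gm20388 overlaps these Cbfa2t3 regions, and summits cannot be assigned to one of them.

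Cbfa2t2 was open at its start (chr2:154436007-154437026) in all 12 lists. Its scores were 32.2, 25.1 and 30.3 for young WT, 39.5, 30.7 and 16.4 for young Mlkl-/-, 32.4, 37.3 and 35.6 for aged WT, and 53.9, 40.2 and 46.2 for aged Mlkl-/- libraries. The 3 aged Mlkl-/- scores were the highest of all, but in rank they overlapped with young libraries, and the change with age was 0.29 ± 0.14 (SE, limma unadjusted p = 0.0502, adjusted p = 0.226). Its intronic region at +27.5 kb had a call in 6 of 6 WT lists and in 4 of 6 Mlkl-/- lists. This was the largest genotype difference over both ages among the members, −0.57 ± 0.24 for Mlkl-/- against WT (limma unadjusted p = 0.0302, adjusted p = 0.763).

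Runx1t1 had 3 open starts. Those at +0.2 and +7.9 kb were called in all 12 lists, with scores of 9.47 to 23.1 and of 8.30 to 36.5, and the start at +41.5 kb in 10 lists, with scores of 4.19 to 10.8. Their changes with age were −0.02 ± 0.14, 0.23 ± 0.16 and −0.28 ± 0.28 (SE, limma adjusted p = 0.946, 0.444 and 0.611), and each sign turned under 1 or more alternatives. The intronic region at +62.5 kb, called in all 12 lists, showed −0.40 ± 0.15 (limma adjusted p = 0.103). At +129.8 kb no young list and 3 of 6 aged lists held a summit, with scores of 12.3 in aged WT and of 10.2 and 14.6 in aged Mlkl-/- libraries, and the difference of 0.54 ± 0.25 did not pass (limma adjusted p = 0.219). This region had entered the test through aged lists alone, so its SE and p were partly set by the filter.

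**Figure D4:**
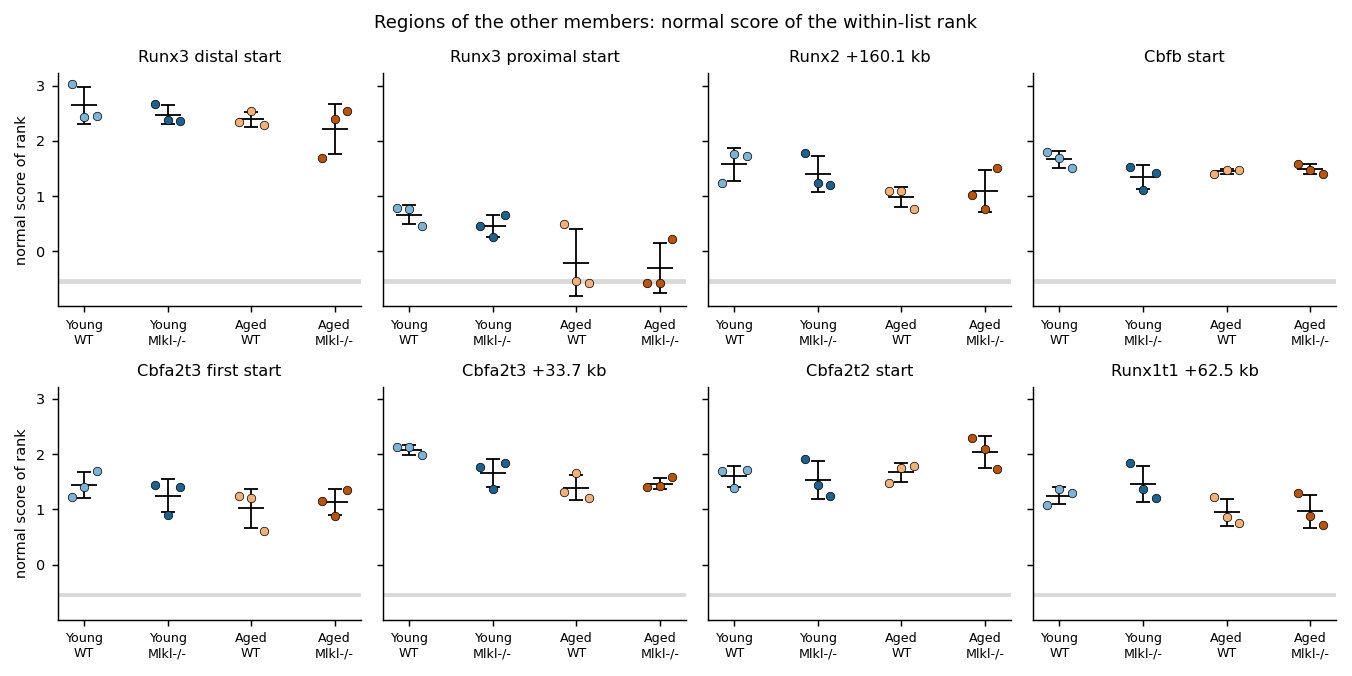
Normal score of the within-list rank (vertical axis, no unit) for 8 regions of the other members in the 4 groups, with 1 point per library, a line at the mean and bars of 1 SD (n = 3). The grey band is the range taken by regions that were not called. Runx3 at its distal start has the highest mean in every group, and at its proximal start 4 of the 6 aged points lie in the band.

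Over the 37 tested member regions the median change with age was −0.13, and 12 of 37 changes were positive, against a median of −0.01 and 49.0% positive over all tested regions. An unadjusted p under 0.05 was reached by 11 member regions (29.7%) and by 22.2% of all tested regions. Among the 11 were Runx1 +181.3 kb, Runx1t1 +129.8 kb and Cbfa2t3 +20.4 kb, which had entered the test through lists of 1 age alone. The member regions lie in 7 genes and are not independent, so these shares are a description. Within WT and within Mlkl-/- limma called 0 member regions each, against 0.201% and 0.15% of all tested regions. In each, 6 member regions reached an unadjusted p under 0.05 (16.2%, against 14.6% and 14.4% of all tested regions). Runx1 +181.3 kb was among these in both genotypes, and Cbfa2t3 +20.4 kb within Mlkl-/-. At an adjusted p under 0.05 the age contrasts held 2 of 37 member regions with the genotypes combined, 2 within WT and 1 within Mlkl-/-. The shares of all tested regions were 7.76%, 1.91% and 1.49%. Runx1 +181.3 kb was included in each of these contrasts, and within Mlkl-/- it was the only member region. It had entered the test through aged lists alone, with every young value that of a region without a call. No member was called for genotype in young mice, in aged mice or over all, or for the interaction, and limma called 0.0% of all tested regions in each of these 4 contrasts. An unadjusted p under 0.05 was reached there by 2, 0, 1 and 0 member regions. Over all tested regions these shares were 5.37%, 5.10%, 6.23% and 4.79%. The median SE of a member difference between genotypes over both ages was 0.19.

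**Figure D5:**
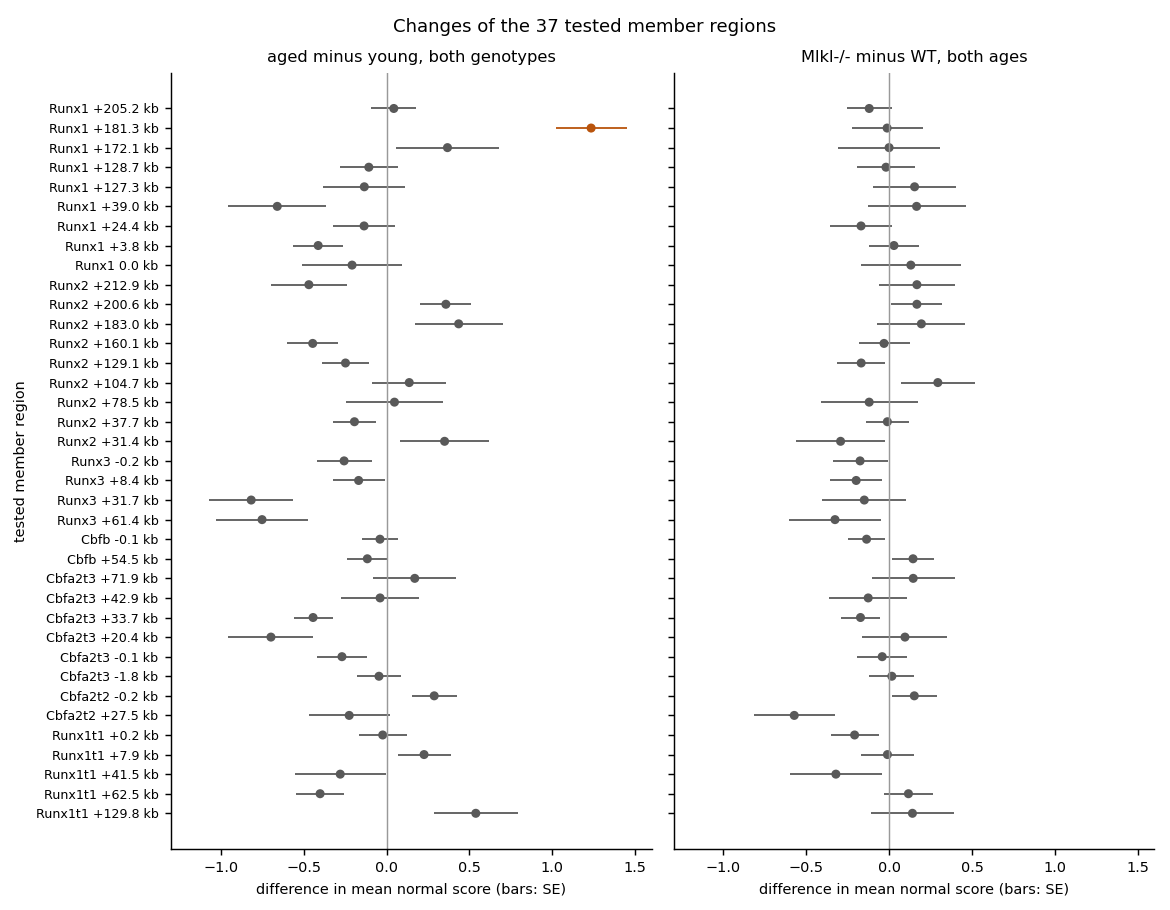
Change in mean normal score (horizontal axis, no unit) of the 37 tested member regions (vertical axis) with age over both genotypes (left) and for Mlkl-/- against WT over both ages (right). Points are estimates and bars are 1 SE from limma on 12 libraries. The coloured point is Runx1 +181.3 kb at 1.23, the single region past the threshold, and no point on the right passes.

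Other genes of the pathway were followed in the same fit. Among 25 genes whose proteins bind or modify RUNX or CBFA2T proteins, such as the acetyltransferase genes Ep300 and Crebbp and the corepressor genes Ncor1, Sin3a and Tle3, 83 regions were tested and 0 were called in any contrast by limma, against 2.71% of all tested regions for age over both genotypes. Their median change with age was 0.0018, and 11 of them had an unadjusted p under 0.05 for age over both genotypes, a smaller share than the 22.2% of all tested regions. The lowest adjusted p with age was 0.0277, at Crebbp. Among 24 genes described as RUNX targets in blood cells, 20 had tested regions, 47 in all, and 0 of these were called. Their median change with age was −0.19, and 5 of them had an unadjusted p under 0.05, again below that share. Gfi1b, which encodes a transcriptional repressor, had the lowest limma adjusted p (0.0223) with a median of −0.61 over 2 regions.

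RUNX letters lay within 100 bp of the highest summit in 21 of 62 member regions (33.9%) and in 27.4% of all regions. GATA letters were found in 22.6% against 15.6%, ETS letters in 38.7% against 40.3% and E-boxes in 53.2% against 42.9%. Within 50 bp the RUNX share was 19.4% against 17.4%, and the longer TGTGGTT within 100 bp was found in 14.5% against 10.3%. The member regions lie in 7 genes and are not independent, so these shares are a description and were not tested. Of the 20 member regions called in all 12 lists, 5 held RUNX letters and 12 held an E-box. Among all regions called in all 12 lists, 25.9% held RUNX letters and 38.3% held an E-box.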

How the data were processed

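Chromatin accessibility was measured by ATAC-seq in 12 libraries of sorted HSCs. The authors mapped single reads to mm10 with Bowtie2 (2.5.3) and called peaks in each library with MACS2 (2.2.7.1), without pooling libraries; extension and shift settings are not given in the sources used here. The deposited lists hold 1 summit per line with a score, the −log10 q-value the authors' peak caller gave it. The lists reach below the stated cutoff, so scores of at least 3 (q of 0.001 or less) were kept for chromosomes 1 to 19 and the sex chromosomes. A score depends on the depth of its library, which is unknown, so ranks within lists were compared.

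Windows of 250 bp each side were merged into 71006 regions and matched to GENCODE genes of mm10 with 10 kb each side. Ranks came from lists cut to 35714 summits (ties broken at random, seed 1). Regions called in at least 3 such lists entered limma 3.58.1 (R 4.3.3; lmFit, contrasts.fit, eBayes with trend), 1 fit of 4 groups with 7 contrasts, Benjamini-Hochberg adjusted p under 0.01. The procedure was also run on simulated scores with known shifts between ages. These had the same spread for every region and no built-in difference in list length between libraries, so they do not test that difference. Other calculations used Python 3.11.15 with scipy 1.17.1, pandas 2.3.3 and pysam 0.24.0. Regions with values were named by rule: own starts called in at least 6 lists, both Runx1 promoters and the 4 highest-ranked regions between them, the highest-ranked other region of each member, regions past the threshold and the largest changes. Others named were chosen after their values were seen. The members and lists were chosen with earlier results of these data known.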

Additional observations from a re-analysis of the deposited data

Results flagged for a closer look

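Summits with a score under 3 were not used in the comparisons above. Near the members they numbered 20 over the 12 lists, in data that carry no control sample.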

How the results depend on the processing

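The count of member regions changed with age over both genotypes was 1 under the catalogue from equal-length lists, windows of 100 bp, percentiles, other score minimums, other filters and a flank of 2 kb. It fell to 0 with lists of unequal length, list length as a covariate, summits at Y genes as a covariate and the 9 libraries with the tag; the cause was not tested. At a limma adjusted p under 0.05 there were 2 member regions for age over both genotypes, 2 for age in WT and 1 for age in Mlkl-/-. Runx1 +181.3 kb, which had entered the test through aged lists alone, was among them in each contrast. The shares of all tested regions at that threshold were 7.76%, 1.91% and 1.49%. Leaving out each library in turn gave 1 member region each time, Runx1 +181.3 kb. These fits kept the cut to equal length, at which every young value there was that of a region without a call. They do not test that cut. Over all tested regions the 1027 calls became 2030 with lists of unequal length, 61 with list length as a covariate, 322 with summits at Y genes as a covariate, 188 in the tagged libraries, 668 without Aged Mlkl-/- 1 and 683 without Aged Mlkl-/- 2.

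At Runx1 +181.3 kb the change ranged from 0.70 to 1.33 over 24 alternatives (adjusted p from 0.00151 to 0.0292). Over all named regions, 513 of 535 alternatives kept direction and side of the threshold, 4 lost the call (those at Runx1 +181.3 kb above) and 18 turned sign, all of them at changes that had not passed the threshold. These were Runx1 +127.3 kb with list length (0.45), the distal Runx1 promoter with unequal lists (0.14) and tagged libraries (0.00957), Runx2 +78.5 kb with unequal lists (−0.000647), tagged libraries (−0.25) and 5 libraries left out (−0.11 to 0.22 over all 12), the Cbfb start with list length (0.00261) and without Young Mlkl-/- replicate 1 (−0.10 to 0.0044 over all 12), Runx1t1 +0.2 kb with list length (0.0737) and 3 libraries left out (−0.103 to 0.0482 over all 12), Runx1t1 +7.9 kb with Y summits (−0.0461) and Runx1t1 +41.5 kb with list length (0.11). The share of member regions with RUNX letters was 19.4% within 50 bp and 14.5% for TGTGGTT.

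Replicate numbers did not pair the libraries: same-numbered libraries of different groups had deviations correlated at −0.30 to 0.13 over 18 pairs, 1 of them over 0.1. With the replicate number as a block, 1 member region was called, Runx1 +181.3 kb, and 773 over all regions. Unknown depth limits every comparison.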
